A study of Mus musculus with 16 samples.

Results

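Expression of the nuclear genes for the mitochondrial ribosome and for mitochondrial protein import was compared between kidney and liver of the mouse. The members are all genes on the arrays whose symbol starts with Mrpl or Mrps and a number, or with Timm or Tomm, together with Tufm. They were taken from probes annotated with a single gene symbol, and probes of the same gene were averaged. This gave 83 of 9669 genes: 41 named as proteins of the large ribosomal subunit, 22 named as proteins of the small subunit, the elongation factor Tufm, 8 Tomm genes and 11 Timm genes. Of the Timm genes, 4 belong to the presequence complex and 7 to the carrier pathway. The members lay on 96 probes, 70 of them with 1 probe and 13 with 2. Another 12 probes carried a member's symbol beside a second symbol and were not used.

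Mitochondria keep a small genome that codes for core subunits of the respiratory chain and ATP synthase, and they translate it on their own ribosome. All proteins of that ribosome are encoded in the nucleus, made in the cytosol and imported. Precursors enter through the TOM complex of the outer membrane. Those with a cleavable presequence pass on to the TIM23 complex of the inner membrane, and carrier proteins are guided by small Tim chaperones to the TIM22 complex. Proximal tubule cells of the kidney and hepatocytes are both rich in mitochondria.

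All animals were male wildtype C3HeB/FeJ mice, an inbred strain, 105 ± 5 days old, with no treatment named, and RNA came from the left kidney and the dorsal liver lobe. On 7 two-colour cDNA arrays the kidney of mouse 1, 2 or 3 (3, 3 and 1 arrays) was set against a pool of livers from 5 animals. On another 9 arrays the livers of these 3 mice (3 arrays each) was set against a pool of kidneys from 5 animals. Both kinds of array give the same quantity, kidney over liver, as a log2 ratio in which a positive value is a higher level in kidney. Repeat hybridisations of 1 RNA were averaged, which left 6 averages per gene, 3 on kidney arrays and 3 on liver arrays, from 3 mice. These ratios do not compare the level of a gene with that of another gene, and in whole organs fewer cells of a type and less RNA per cell cannot be told apart.

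Between 15480 and 19432 of 20419 probes had a value on an array. The direction of the ratio was read from marker genes and is opposite to the order of the titles. In that direction 15 of 16 hepatocyte markers were higher in liver (median -6.24) and 9 of 9 proximal tubule markers higher in kidney (median 5.38). Collecting duct (3 of 3) and podocyte (2 of 2) markers were also higher in kidney. The 4 markers of the loop and distal tubule gave 2 calls for kidney and 1 for liver, and the 5 of macrophages and blood 1 call for each organ. With the title order, every kidney and liver below would be exchanged. The arrays of mouse 2 stood apart. Ratios were normalised to a median of 1 per the labels, which held for the 10 arrays of mice 1 and 3, but the deposited medians of mouse 2 lay between 1.19 and 1.49 on its 3 kidney arrays and between -1.35 and -1.32 on its 3 liver arrays. Each array was therefore centred on its median, and results are also given without mouse 2, with mouse 2 aligned on bright probes, and as deposited. All values are relative to the median probe of an array. Values as deposited move the median of all genes from -0.01 to -0.48, and the alignment moves it to -0.39.

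Of the 83 members, 79 had values in at least 2 mice per organ and were tested, 68 of them in all 6 averages. Mrpl4, Mrpl55, Mrps26 and Timm8b had too few values. A gene was called where its adjusted p from limma was under 0.05. This fit takes the 6 averages as independent, although kidney and liver arrays share the mice. Deviations of a mouse from the mean of the mice were correlated between both kinds of array (0.575, 0.789 and 0.568 as kidney over liver). Such a correlation tends to make the SE and p-values of this fit too low for kidney over liver. Its source was not tested. With arrays centred, 12 of 79 members were higher in kidney (15.2%) and 8 higher in liver (10.1%), beside 19.5% and 12.4% of all 9047 genes tested. Both shares were below those of all genes in this setting, and the differences were not tested. The median over the members was 0.00, with the central 50% between -0.32 and 0.36, beside a median of -0.01 over all genes. Most differences were small: 73 of 79 members lay within 1 log2 unit of 0, and 6 differed by more than 2-fold. The 6 were Mrpl11 and Mrps17, higher in liver, and Mrps18c, Mrpl45, Mrpl20 and Tomm70a, higher in kidney. The SE of a member ranged from 0.115 to 0.306.

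**Figure D1:**
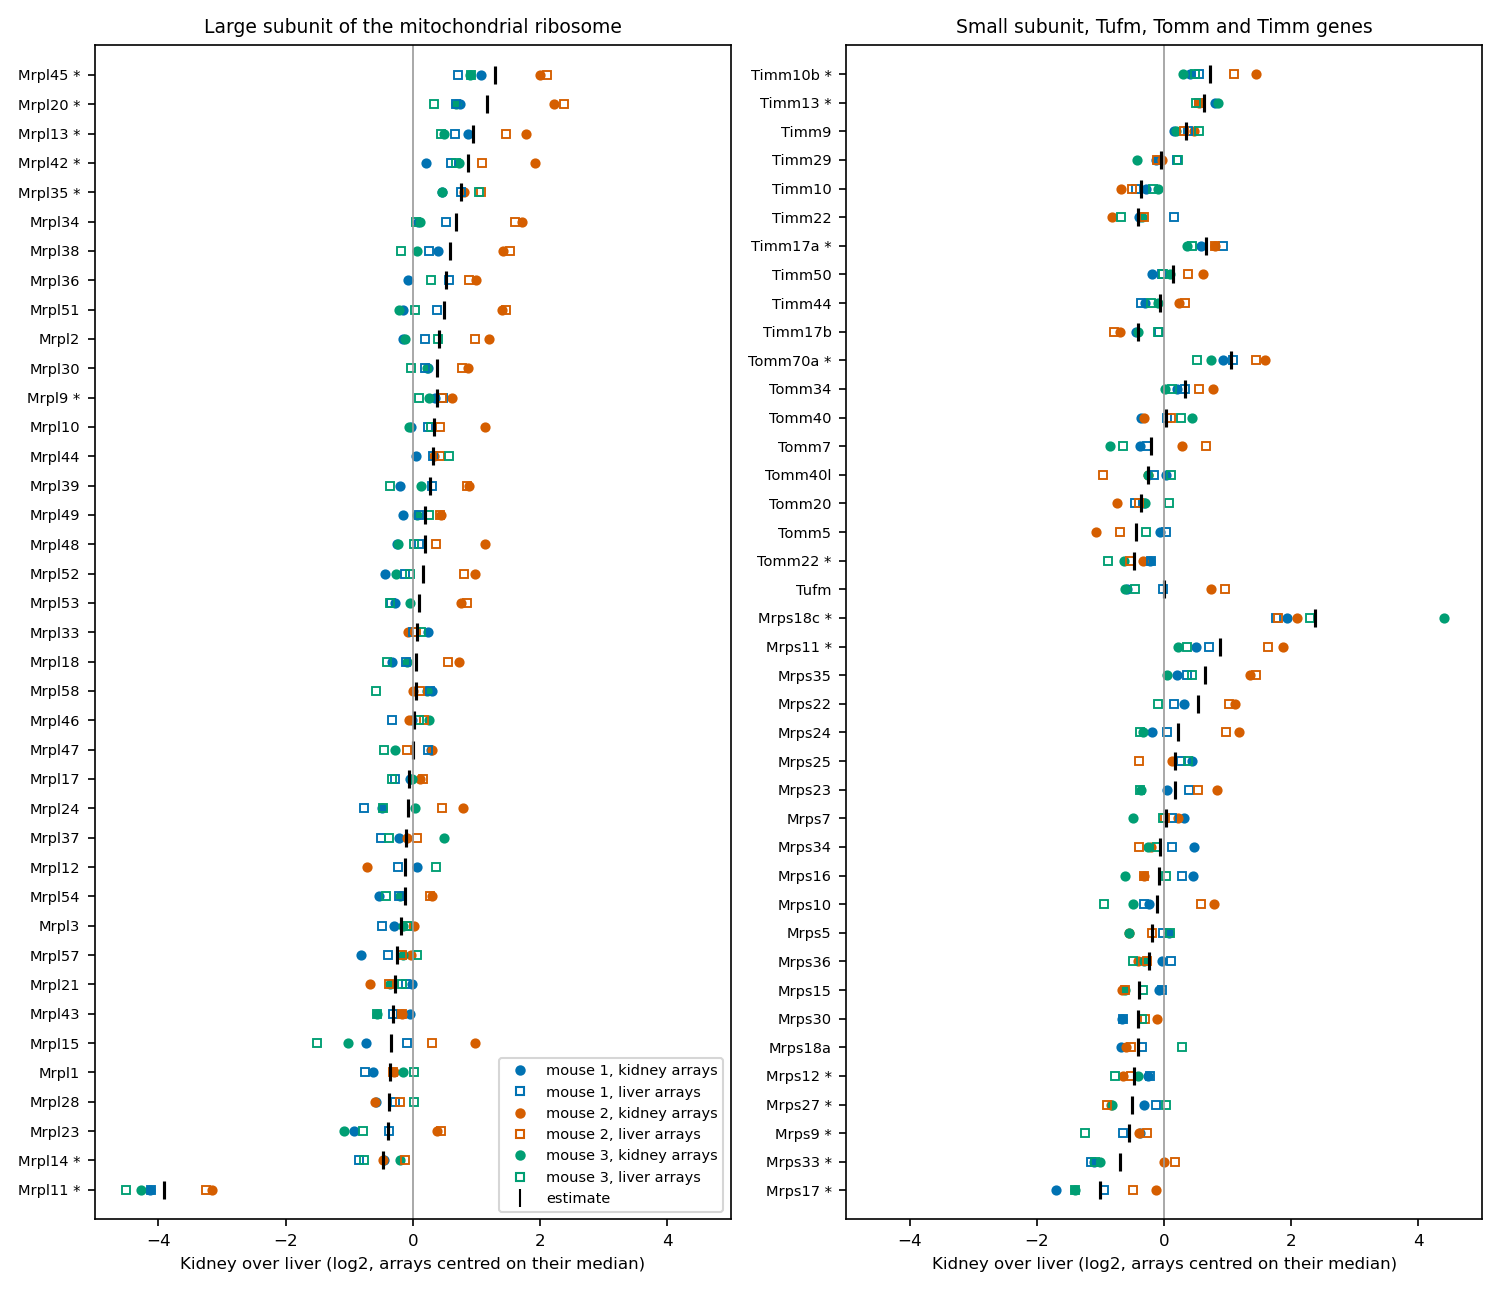
Kidney over liver (log2, arrays centred) of the 79 tested members in the averages of each mouse on kidney arrays (filled circles) and liver arrays (open squares), with the estimate of the fit as a bar and an asterisk for called members. Most members lie within 1 log2 unit of 0, Mrpl11 lies between -4.50 and -3.16, and mouse 2 (orange) is often the highest of the 3 mice.

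How many members were called depended on the treatment of mouse 2. With mouse 2 aligned on bright probes, 5 members were higher in kidney and 9 in liver, beside 8.48% and 12.1% of all genes, and the member median was -0.36. As deposited, 2 and 4 members were called, beside 5.56% and 8.88% of all genes. Without mouse 2, 11 and 12 of 68 members were called (16.2% and 17.65%), beside 20.3% and 15.7% of 7575 genes. The liver share was then above that of all genes, and the member median was -0.08. With a replicate block for the mouse, which takes its kidney and liver as paired, 6 members were higher in kidney and 2 in liver, beside 11.8% and 5.35% of all genes. All 8 were among the 20 above. Leaving out mouse 1 gave 5 calls for kidney and 1 for liver of 68, beside 11.6% and 4.47% of 7669 genes. Leaving out mouse 3 gave 10 and 1 of 78, beside 14.5% and 6.15% of 8768 genes. Of the 20 calls, 10 also held both with mouse 2 aligned and without it: Mrps18c, Mrpl45, Mrpl20, Tomm70a and Mrpl13 in kidney, and Mrpl11, Mrps17, Mrps33, Mrpl14 and Tomm22 in liver. The values as deposited kept 5 of these, Mrps18c, Mrpl45, Mrpl11, Mrps17 and Mrps33.

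**Figure D2:**
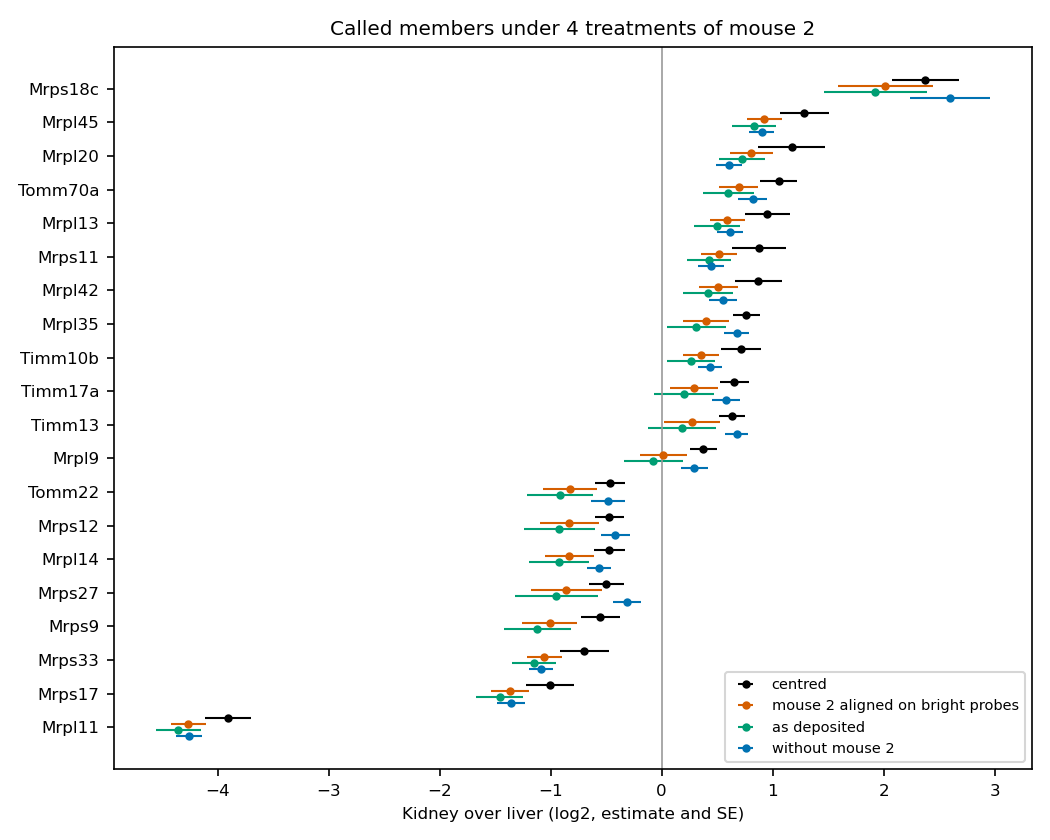
Estimates with SE of the 20 called members (log2 kidney over liver) with arrays centred, with mouse 2 aligned on bright probes, as deposited and without mouse 2. Mrpl11 and Mrps18c stay far from 0 in each treatment, while Mrpl9 moves from 0.38 when centred to -0.08 as deposited.

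The proteins of the large subunit, which joins amino acids into the chain, had 39 tested members, with a median of 0.07. Of these, 6 (15.4%) had more RNA in kidney and 2 (5.13%) more in liver, beside 19.5% and 12.4% of all genes. Without mouse 2 the counts were 5 and 5 of 34, with a median of -0.07. That is 14.7% each, beside 20.3% and 15.7% of all genes. The 31 members without a call lay between -0.39 and 0.69. Only Mrpl11, higher in liver, and Mrpl45 and Mrpl20, higher in kidney, differed by more than 2-fold in this group.

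Mrpl11 had the largest difference of all members. It encodes a protein at the base of the stalk where translation factors bind. Its log2 ratio was -4.13, -3.16 and -4.27 on the kidney arrays of mice 1, 2 and 3, and -4.12, -3.25 and -4.50 on their liver arrays. All 6 averages lay far below 0, those of mouse 2 least so, and as deposited mouse 2 read -4.53 and -4.59, beside the other mice. The estimate was -3.91 (SE 0.21, 6 averages from 3 mice, adjusted p = 2.80e-06 by limma), 15.0-fold higher in liver. With the replicate block the SE was 0.26 (adjusted p = 4.42e-05 by limma). Mrpl11 was called in every alternative, with -4.26 without mouse 2. It rests on a single probe, which all alternatives share and whose own sequence was not checked here.

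On the kidney side, Mrpl45 led the large subunit. Its protein sits at the exit of the peptide tunnel and holds the ribosome to the inner membrane. Mrpl45 read 1.07, 2.00 and 0.90 on the kidney arrays of mice 1, 2 and 3 and 0.71, 2.12 and 0.92 on the liver arrays. Every average was above 0 and mouse 2 was the highest by about 1 log2 unit. The estimate was 1.29 (SE 0.22, adjusted p = 0.00285 by limma), 2.44-fold higher in kidney, with 0.90 without mouse 2 (adjusted p = 0.000968) and 0.83 as deposited.

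Mrpl20, a structural protein that binds the large ribosomal RNA, read 0.74, 2.22 and 0.68 on kidney arrays and 0.68, 2.38 and 0.33 on liver arrays. All averages were positive, but mouse 2 was high on both kinds of array. Its estimate of 1.17 (SE 0.30, adjusted p = 0.0182 by limma) fell to 0.61 without mouse 2, where the call held. The call was lost without mouse 1 (adjusted p = 0.0686), as deposited (0.0512) and with the replicate block (0.0533). Mrpl13, another structural protein, read 0.87, 1.78 and 0.49 on kidney arrays and 0.66, 1.46 and 0.44 on liver arrays. It was positive throughout and again highest in mouse 2. The estimate was 0.95 (SE 0.20, adjusted p = 0.00813 by limma) and 0.62 without mouse 2. Without mouse 1 the call of Mrpl13 was lost (1.04, adjusted p = 0.0656). Mrpl42, found in mitochondrial but not bacterial ribosomes, read 0.20, 1.93 and 0.73 on kidney arrays and 0.61, 1.09 and 0.68 on liver arrays. Its averages were all above 0 with a wide spread on the kidney arrays. The estimate was 0.87 (SE 0.21, adjusted p = 0.0154 by limma). It was 0.55 and called without mouse 2, but the call was lost without mouse 3 (0.96, adjusted p = 0.0764) and with mouse 2 aligned (0.51, adjusted p = 0.0744).

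In liver, Mrpl14 followed Mrpl11. Its protein lies at the face where the subunits meet. Mrpl14 read -0.44, -0.46 and -0.20 on kidney arrays and -0.84, -0.12 and -0.76 on liver arrays. The averages were all below 0, with mouse 2 nearest to 0 on the liver arrays and beside mouse 1 on the kidney arrays. The estimate was -0.47 (SE 0.14, adjusted p = 0.0320 by limma), with -0.56 without mouse 2 (adjusted p = 0.00766). The call was lost without mouse 1 (-0.39, adjusted p = 0.250), without mouse 3 (-0.47, adjusted p = 0.129) and with the replicate block (adjusted p = 0.139). Outside the rule for named genes, and chosen after their values were seen, Mrpl35 (0.76) and Mrpl9 (0.38) were called higher in kidney. Mrpl35 kept its call without any single mouse and with the replicate block, but not with mouse 2 aligned (0.40). Mrpl9 kept it with none of these, at 0.36, 0.30 and 0.48 without mice 1, 2 and 3.

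Without mouse 2, 3 further genes of the large subunit were called higher in liver. They are Mrpl15 (-0.83), Mrpl23 (-0.79) and Mrpl24 (-0.42). With all mice centred they read -0.34, -0.39 and -0.07 and were not called, since mouse 2 was above 0 for each while mice 1 and 3 were mostly below. Mrpl23 was also called with mouse 2 aligned (-0.75) and as deposited (-0.84).

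The small subunit, which reads the messenger RNA, had 21 tested members, with a median of -0.10. Of these, 2 (9.52%) had more RNA in kidney and 5 (23.8%) more in liver, beside 19.5% and 12.4% of all genes. Without mouse 2 the counts were 2 and 4 of 16 and the median -0.14. That is 12.5% and 25%, beside 20.3% and 15.7% of all genes. The difference in counts between the subunits was not tested. The groups follow the symbols: the proteins of Mrps18a (-0.42) and Mrps30 (-0.41) are known to sit in the large subunit, and that of Mrps36 (-0.23) is now placed in the oxoglutarate dehydrogenase complex. None of these 3 was called with arrays centred, and Mrps30 was called higher in liver with mouse 2 aligned (-0.86). Mrps10 was called higher in liver without mouse 2 (-0.50) and read -0.10 with all mice. The 14 genes of the group without a call lay between -0.42 and 0.64.

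Mrps18c had the largest kidney excess of all members. It encodes 1 of the mammalian relatives of bacterial ribosomal protein S18. Mrps18c read 1.93, 2.09 and 4.41 on the kidney arrays of mice 1, 2 and 3 and 1.76, 1.79 and 2.29 on their liver arrays. All averages were well above 0, and the highest, from the kidney of mouse 3, was a single array. The estimate was 2.38 (SE 0.30, adjusted p = 0.000548 by limma), 5.20-fold higher in kidney. It was 1.89 without mouse 3 and 2.60 without mouse 2, and called in both.

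Mrps11, a protein of the platform of the small subunit, was the other gene of the group higher in kidney. It read 0.50, 1.87 and 0.22 on kidney arrays and 0.70, 1.63 and 0.35 on liver arrays. All averages were positive, those of mouse 2 by far the highest. The estimate was 0.88 (SE 0.25, adjusted p = 0.0264 by limma) and 0.44 without mouse 2 (adjusted p = 0.0287). The call was lost without mouse 1 (1.02, adjusted p = 0.103), with mouse 2 aligned (0.52, adjusted p = 0.0594) and with the replicate block (adjusted p = 0.0806).

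On the liver side of the small subunit, Mrps17, a structural protein that binds the small ribosomal RNA, read -1.69, -0.12 and -1.40 on kidney arrays and -0.94, -0.49 and -1.40 on liver arrays. It was below 0 in all averages and nearest to 0 in mouse 2. The estimate was -1.01 (SE 0.22, adjusted p = 0.00886 by limma), 2.01-fold higher in liver, and -1.36 without mouse 2 (adjusted p = 0.000282). It was lost as a call without mouse 1 (-0.85, adjusted p = 0.1003) and without mouse 3 (-0.81, adjusted p = 0.0963). The probes of Mrps17 read -1.73 and -0.29, and only the first was called. Mrps33, a protein without a bacterial relative, read -1.10, -0.01 and -1.02 on kidney arrays and -1.15, 0.18 and -1.09 on liver arrays. Mice 1 and 3 lay together near -1 and mouse 2 near 0, with 1 average above 0. The estimate was -0.70 (SE 0.22, adjusted p = 0.0426 by limma) and moved to -1.09 without mouse 2 (adjusted p = 0.000316). Without mouse 1 (-0.48, adjusted p = 0.299) and without mouse 3 (-0.52, adjusted p = 0.245) it was not called, nor with the replicate block (adjusted p = 0.128).

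Mrps9 and Mrps27 had weaker support. Mrps9, whose protein reaches into the decoding site, had no value in the kidney of mouse 3. It read -0.37 and -0.40 on the kidney arrays of mice 1 and 2, and -0.65, -0.26 and -1.25 on the liver arrays of mice 1, 2 and 3. The 5 averages were all negative, with the lowest in mouse 3. The estimate was -0.55 (SE 0.18, adjusted p = 0.0486 by limma). Without mouse 3 it was -0.42 (adjusted p = 0.123), and without mouse 1 or 2 it had too few values. With the replicate block it was -0.42 (adjusted p = 0.292). Mrps27, which has the helical repeats typical of RNA-binding proteins of organelles, read -0.32, -0.84 and -0.82 on kidney arrays and -0.13, -0.89 and 0.03 on liver arrays. Its averages reached above 0 in the liver of mouse 3. The estimate was -0.50 (SE 0.16, adjusted p = 0.0433 by limma), and the call was lost without each mouse, with estimates between -0.63 and -0.31, and with the replicate block (adjusted p = 0.152). Outside the rule for named genes, and chosen after its values were seen, Mrps12, whose protein lines the decoding centre, was called at -0.47 with all 6 averages below 0. Without mouse 2 it was called too (-0.42), but not without mouse 1 (-0.59) or mouse 3 (-0.41), nor with the replicate block (adjusted p = 0.145).

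Tufm, the elongation factor that brings aminoacyl-tRNA to the mitochondrial ribosome, had estimates that depended on mouse 2. It read -0.59, 0.73 and -0.62 on kidney arrays and -0.02, 0.95 and -0.47 on liver arrays. Mouse 2 lay above 0 on both kinds of array, and all averages of mice 1 and 3 lay below. The estimate with all mice was -0.00 (SE 0.24, adjusted p = 0.996 by limma). Without mouse 2 it was -0.42 (SE 0.12, adjusted p = 0.0337), higher in liver. Without mouse 1 it was 0.15 and without mouse 3 0.27, neither called. As deposited mouse 2 read -0.64 on kidney and -0.39 on liver arrays, close to the other mice.

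The Tomm genes encode the outer membrane complex and its helpers, and 1 of 8 was higher in kidney and 1 in liver, with a median of -0.23. That is 12.5% each, beside 19.5% and 12.4% of all genes. Without mouse 2 the counts were 1 and 2 of 7, with a median of -0.07, beside 20.3% and 15.7% of all genes. Tomm70a is the receptor that takes over carrier precursors from cytosolic chaperones. It read 0.93, 1.58 and 0.74 on kidney arrays and 1.08, 1.45 and 0.53 on liver arrays. In the mean of both probes all averages were above 0.5, and mouse 2 was highest. The probes read 1.73 and 0.38, and only the first was called. The estimate was 1.05 (SE 0.17, adjusted p = 0.00194 by limma), 2.08-fold higher in kidney. It was called without each mouse in turn, at 1.08, 0.82 and 1.26 without mice 1, 2 and 3, but not as deposited (0.60, adjusted p = 0.111).

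Tomm22, the central receptor that ties presequence receptors to the channel, read -0.21, -0.34 and -0.63 on kidney arrays and -0.21, -0.53 and -0.88 on liver arrays. All averages were below 0 and lowest in mouse 3. The estimate was -0.47 (SE 0.14, adjusted p = 0.0312 by limma) and -0.48 without mouse 2 (adjusted p = 0.0462). It was not called without mouse 1 (-0.59, adjusted p = 0.0937), without mouse 3 (-0.32, adjusted p = 0.203) or with the replicate block (adjusted p = 0.161). The 6 Tomm genes without a call with arrays centred were Tomm34 (0.33), which encodes a cytosolic co-chaperone, the channel gene Tomm40 (0.03), Tomm7 (-0.20), Tomm40l (-0.25), the presequence receptor Tomm20 (-0.36) and Tomm5 (-0.44). Tomm7, a small subunit of the complex, was called higher in liver with mouse 2 aligned (-0.56) and without it (-0.54).

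Of the 4 presequence complex genes, 1 was called, in favour of kidney, beside 19.5% of all genes. Timm17a, a subunit of the presequence channel, read 0.58, 0.81 and 0.37 on kidney arrays and 0.93, 0.81 and 0.43 on liver arrays. All averages were positive. Mouse 2 was the highest on 1 of the gene's probes (1.98 and 2.04 on kidney and liver arrays). On the other it was the lowest (-0.37 and -0.43). In the mean of both probes mouse 2 was not apart after centring, though it read -0.56 and -0.53 as deposited. The estimate was 0.65 (SE 0.13, adjusted p = 0.00577 by limma), 0.58 without mouse 2, 0.29 with mouse 2 aligned (adjusted p = 0.302) and 0.60 without mouse 1 (adjusted p = 0.0973). The replicate block gave an adjusted p of 0.0556. Its paralogue Timm17b read -0.41 (adjusted p = 0.0525) with all averages below 0. Timm50 (0.14), the receptor of the complex, and Timm44 (-0.06), which anchors the import motor, were not called.

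Among 6 tested genes of the carrier pathway, 2 were called, both for kidney, beside 19.5% of all genes. The median was 0.15. Timm13, a small chaperone of the intermembrane space, read 0.81, 0.55 and 0.85 on kidney arrays and 0.54, 0.55 and 0.50 on liver arrays. In the mean of both probes the averages were close together and all positive, but the probes read 1.25 and 0.04. The lower probe was below 0 in mouse 2 (-0.496 and -0.383 on kidney and liver arrays), where the other probe was highest. In the kidney of mouse 3 only the lower probe had a value. The estimate for the gene was 0.63 (SE 0.12, adjusted p = 0.00373 by limma), 0.68 without mouse 2 and 0.61 without mouse 1 (adjusted p = 0.0808). Timm10b, a small Tim protein bound to the carrier translocase, read 0.41, 1.45 and 0.30 on kidney arrays and 0.55, 1.09 and 0.48 on liver arrays. It was positive throughout and highest in mouse 2. The estimate was 0.71 (SE 0.18, adjusted p = 0.0171 by limma), 0.44 without mouse 2 and 0.83 without mouse 1 (adjusted p = 0.0835). With mouse 2 aligned neither Timm13 (0.27) nor Timm10b (0.35) was called, nor with the replicate block (adjusted p = 0.0515 and 0.0747). The other small chaperones Timm9 (0.34) and Timm10 (-0.36), the channel gene Timm22 (-0.40) and Timm29 (-0.045) were not called.

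The offset of mouse 2 differed with how often a member's values recur. Low intensities are small whole numbers whose ratios recur on an array, so the share of a member's values that recur exactly stands in for signal, although it is read from the same ratios. In 11 members with at most 10% recurring values, mouse 2 as deposited differed from the mean of mice 1 and 3 by a median of 0.02 on kidney arrays and -0.28 on liver arrays. In 35 members between the limits the medians were -0.63 and -0.86, and in 17 members with over 50% recurring values -1.08 and -1.16. The same bands gave -0.24 and -0.38, -0.995 and -1.05, and -1.52 and -1.39 over all genes. Within a band members varied: at few recurring values the difference of mouse 2 from the other mice, averaged over both kinds of array, was -1.30 for Mrpl46 and -1.08 for Mrpl14, and 0.35 for Mrpl20. The part of this offset in each call was not tested beyond the values without mouse 2.

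**Figure D3:**
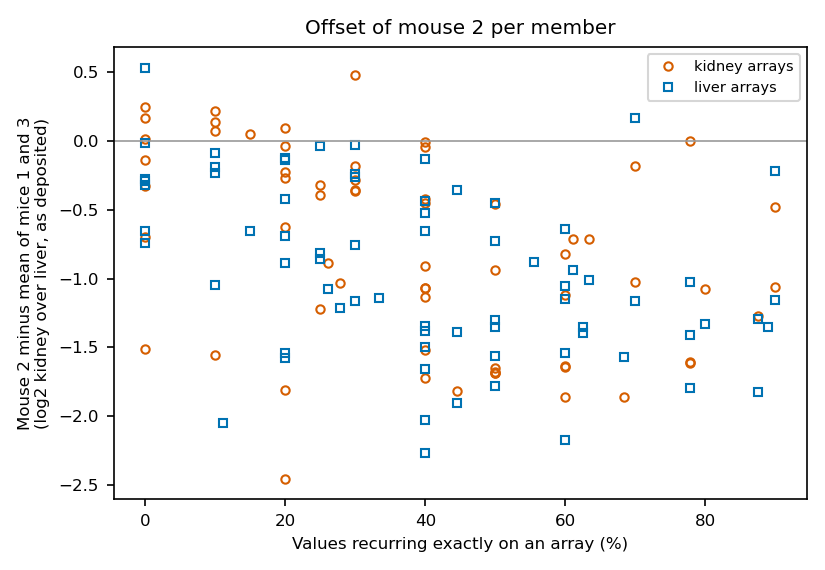
Difference of mouse 2 from the mean of mice 1 and 3 (log2 kidney over liver, as deposited) for each member on kidney arrays (circles) and liver arrays (squares), against the percentage of the member's values that recur exactly on an array. The median is 0.02 on kidney arrays and -0.28 on liver arrays at 10% or below, and -1.08 and -1.16 over 50%, with a wide spread in each band.

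No member's kidney over liver differed between kidney and liver arrays by limma (0 of 79 after adjustment and 0 at an unadjusted p under 0.05, beside 1 of 9047 genes or 0.0111% and 124 genes unadjusted). Kidney over liver of a mouse was positively correlated between both kinds of array, and leaving the mouse out of this test tends to make its SE too large. With the mouse as a replicate block, a fit added after seeing the data, 0 of 79 members differed after adjustment, beside 13 genes (0.144%). At an unadjusted p under 0.05, 3 of 79 members differed, beside 724 of 9047 genes. Mrps18c and Mrpl24 were higher on kidney arrays (0.86 and 0.37, adjusted p by limma 0.611 and 0.615), and Mrpl35 was higher on liver arrays (-0.39, adjusted p = 0.615). These 3 were chosen after their values were seen. The median absolute gap between kinds was 0.14, and the widest was 0.86 in Mrps18c, where the single kidney array of mouse 3 was high. Kidney and liver arrays of a mouse share that animal but use different pools as the partner. Between hybridisations of the same RNA the members had a median SD of 0.194, beside 0.395 between mice, against 0.195 and 0.351 over all genes. The SD between mice includes mouse 2, whose offset differs between genes. Mice 1 and 3 alone differed by a median of 0.260, beside 0.265 over all genes.

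Probes of the same gene did not always read alike. In the 13 members with 2 probes, 6 had 1 probe called and the other not, 7 had neither called, and 0 had probes called in opposite directions. Over all genes, 3395 of 10831 tested probes were called. With so few member probes called, the lack of opposite calls does not show that probes agree. The median gap between probes was 0.69 and 5 gaps exceeded 1 log2 unit. For Timm17a the probes read 1.49 and -0.059, for Mrps17 -1.73 and -0.29, for Tomm70a 1.73 and 0.38, and for Timm13 1.25 and 0.04. In these 4 called members only 1 of the probes was called. Mrps25 (1.14 and -0.19) and Timm50 (0.64 and -0.33) had 1 called probe but were not called as a gene. The other 16 called members rest on 1 probe each, with no second probe to compare.

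**Figure D4:**
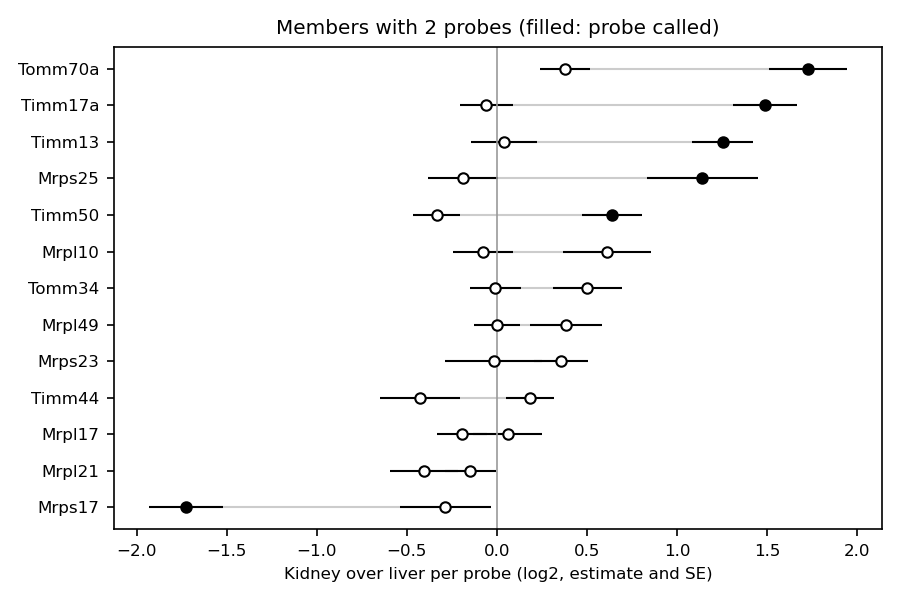
Estimate and SE per probe (log2 kidney over liver) for the 13 members with 2 probes, joined by a grey line, with called probes filled. The widest gap is 1.55 in Timm17a, and no member has probes called in opposite directions.

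Promoters of 6 called members are shown to set their start regions side by side. RefSeq promoters (GRCm38.p6, from 250 bases before to 50 bases after a start) were found for 74 of the 83 members. On both strands, 4 motifs known from promoters of mitochondrial genes or growth-related genes were searched: CCGGAAG (ETS family), AAGATGGC (YY1), GCATGCGC (NRF1) and CACGTG (E-box). The printed stretches run 5′ to 3′ on the gene's strand and end 30 bases into the transcript, with motif matches in capitals. They were chosen after the values were seen: the 3 members with the largest called differences, both called Tomm genes, and Mrps11, which shares its start region with another member.
Mrpl11, chr19:4962136-4962335, + strand: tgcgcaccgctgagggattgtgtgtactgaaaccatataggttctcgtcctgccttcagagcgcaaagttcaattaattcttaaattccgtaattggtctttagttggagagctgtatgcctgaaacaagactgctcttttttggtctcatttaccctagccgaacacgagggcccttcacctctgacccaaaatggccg
Mrps18c, chr5:100798589-100798788, + strand: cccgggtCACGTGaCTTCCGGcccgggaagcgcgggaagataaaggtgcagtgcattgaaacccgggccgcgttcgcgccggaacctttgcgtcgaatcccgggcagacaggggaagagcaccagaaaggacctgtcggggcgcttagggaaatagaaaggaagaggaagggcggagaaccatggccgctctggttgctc
Mrpl45, chr11:97315546-97315745, + strand: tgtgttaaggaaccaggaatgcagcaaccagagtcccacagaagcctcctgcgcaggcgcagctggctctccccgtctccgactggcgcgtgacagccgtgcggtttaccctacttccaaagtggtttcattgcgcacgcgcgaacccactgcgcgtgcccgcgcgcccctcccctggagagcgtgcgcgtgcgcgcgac
Tomm70a, chr16:57121544-57121743, + strand: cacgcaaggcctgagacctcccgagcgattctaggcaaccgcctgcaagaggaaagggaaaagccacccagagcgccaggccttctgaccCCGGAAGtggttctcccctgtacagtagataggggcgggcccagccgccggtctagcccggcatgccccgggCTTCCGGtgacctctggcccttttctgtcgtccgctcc
Tomm22, chr15:79670698-79670897, + strand: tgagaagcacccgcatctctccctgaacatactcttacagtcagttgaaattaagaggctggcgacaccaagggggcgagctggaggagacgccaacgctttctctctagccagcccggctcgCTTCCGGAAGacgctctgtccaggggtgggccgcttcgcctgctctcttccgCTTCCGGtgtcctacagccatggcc
Mrps11, chr7:78782961-78783160, + strand: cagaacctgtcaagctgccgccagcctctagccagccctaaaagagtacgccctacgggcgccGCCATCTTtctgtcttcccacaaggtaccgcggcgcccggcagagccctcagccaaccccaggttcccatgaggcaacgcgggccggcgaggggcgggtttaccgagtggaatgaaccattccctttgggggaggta
Mrpl11 and Mrpl45 held none of the 4 exact strings in this stretch. Other forms of a factor's site were not searched, so this does not show that they lack a site. Mrps18c held an E-box and a reversed ETS motif side by side, Tomm70a an ETS motif in each orientation, and Mrps11 a reversed YY1 motif. Tomm22 held 3 ETS matches, of which 2 overlap in opposite orientations.

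Over the members, the ETS motif was in 30 of 74 promoters (40.5%), beside 18.1% of the genes tested on the arrays and 9.93% of all genes in the table. The YY1 motif was in 12 (16.2%, beside 5.23% and 3.19%), the NRF1 motif in 6 (8.11%, beside 5.05% and 3.05%) and the E-box in 8 (10.8%, beside 11.6% and 8.09%). The ETS motif was in 3 of 11 members higher in kidney, 4 of 8 higher in liver and 21 of 52 not called. A match is a run of letters and not a measured binding site. The counts hold only these exact strings and miss any other form of a factor's site.

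Genes that work with these members, and other mitochondrial lists, are given as counts with no test between lists. Of all genes, 19.5% were called for kidney and 12.4% for liver with arrays centred. These shares were 20.3% and 15.7% without mouse 2, and 8.48% and 12.1% with mouse 2 aligned. They were 11.8% and 5.35% with the replicate block and 5.56% and 8.88% as deposited. Without mouse 1 they were 11.6% and 4.47%, and without mouse 3 14.5% and 6.15%. The median of all genes was -0.01 centred and -0.39 with mouse 2 aligned. Of 18 tested import partners (motor, proteases and intermembrane space factors) 8 were called for kidney and 0 for liver, with a median of 0.36. There were 7 calls for kidney of 17 without mouse 2, 6 of 18 with the replicate block, 5 with mouse 2 aligned (median 0.0042), 4 of 17 without mouse 1 and 2 as deposited, with 0 for liver in each. Immt, which shapes the cristae, led them at 2.78 (2.36 without mouse 2), followed by the motor co-chaperones Dnajc15 (1.37) and Grpel2 (1.05). Both subunits of the presequence protease, Pmpca (0.87) and Pmpcb (0.98), were higher in kidney, as were Chchd4 (0.95) and Gfer (0.91), the oxidative folding pair of the intermembrane space. The matrix chaperone Hspa9 was not called (0.38). The citric acid cycle list had 9 of 14 genes called for kidney and 0 for liver, with a median of 0.66. Most of these calls depended on the treatment: there were 2 with the replicate block and as deposited, 3 with mouse 2 aligned, 1 of 11 without mouse 1, 8 of 11 without mouse 2 and 4 of 14 without mouse 3, with 0 for liver in each.

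Of 80 genes of oxidative phosphorylation, which include assembly factors, 23 were called for kidney and 5 for liver, with a median of 0.22. The counts were 22 and 9 of 72 without mouse 2, 13 and 0 with the replicate block, 12 and 8 with mouse 2 aligned (median -0.15), 9 and 4 as deposited, and 8 and 1 of 71 without mouse 1. Among 19 other genes of mitochondrial translation 3 were called for kidney and 1 for liver, with a median of 0.12, 2 and 0 with the replicate block, and 1 and 2 with mouse 2 aligned. The kidney genes were the isoleucyl-tRNA synthetase Iars2 (1.68), the elongation factor Gfm1 (0.89) and the RNA-binding protein gene Lrpprc (0.87), and the liver gene was Chchd1 (-0.72), itself a small subunit protein. Of 39 cytosolic ribosomal protein genes 7 were called for kidney and 0 for liver, with a median of 0.28, but 5 and 2 of 34 with a median of -0.0072 without mouse 2, and 3 and 0 with the replicate block.

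**Figure D5:**
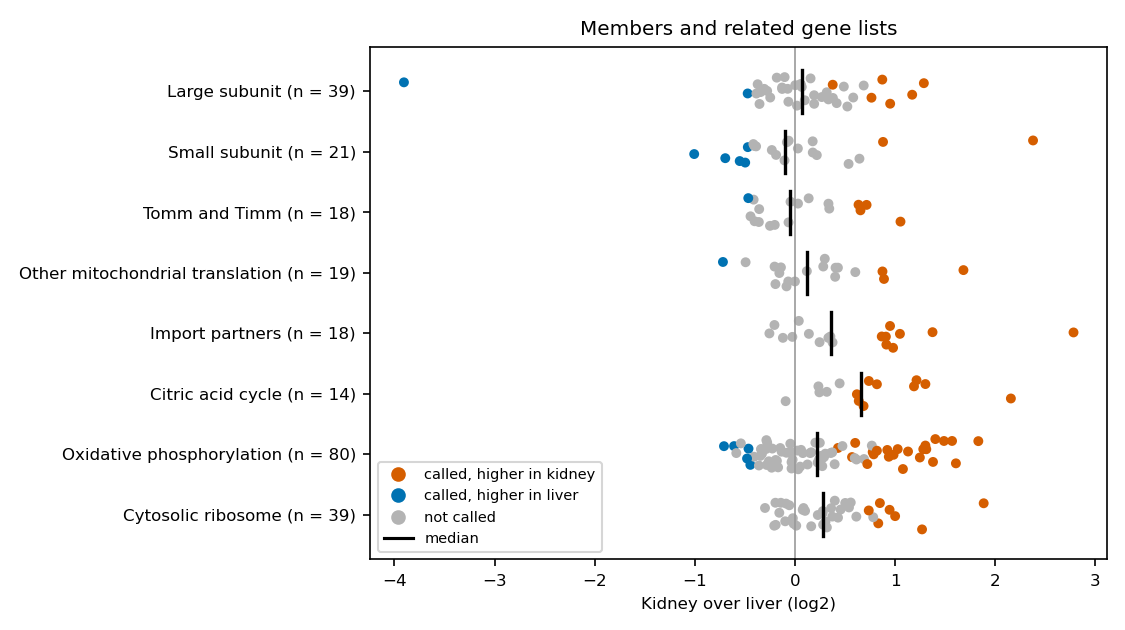
Kidney over liver (log2, arrays centred) of each tested gene in the members' groups and in 5 related lists, coloured by call, with the list's median as a bar. With the Tomm and Timm genes drawn together, the medians run from -0.10 in the small subunit to 0.66 in the citric acid cycle list, and Mrpl11 lies far to the left in the large subunit.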

How the data were processed

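Each deposited value is a log2 ratio between an array's channels. Per the labels, slides were scanned with a GenePix 4000A, GenePix Pro 3.0 gave mean intensities after background subtraction, whose ratios the authors set to a median of 1. The base is not stated: of 150 spacings between frequent values, 131 were the log2 of a whole-number ratio within 1e-04, 0 the natural logarithm and 8 log10. Dyes per sample and the numerator are not given in the sources used here. Values read as pool over single sample and were turned to kidney over liver. Raw intensities were not used here.

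Of 20419 probes, 11723 had 1 symbol in the platform annotation, 806 several and 7890 none. Of the first, 11590 matched RefSeq and 133 kept the platform's name. The members and lists were chosen with earlier results of these data known. Each array was centred on its median, repeat hybridisations were averaged, and the 6 averages of all 9047 genes measured in 2 or more mice per organ were fitted with limma (3.58.1, under R 4.3.3), with a term for the array kind. P-values are two-sided and Benjamini-Hochberg adjusted. The fit was also run on simulated averages that were independent of each other. That run could not show the effect of averages that share a mouse. Bright probes had at most 0.1 of their values recurring and dim probes over 0.5, judged on mice 1 and 3 where at least 8 of their 10 arrays had a value.

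Mouse numbers mark the same animals on both kinds of array, per the labels. Over 7514 genes, deviations from the group means (taken as sample over pool) correlated between both array kinds of a mouse at -0.575, -0.789 and -0.568, which is positive as kidney over liver. The fit without a block leaves this out, which tends to make its SE and p-values too low for kidney over liver and too high for the array kind. The pools give no estimate of spread, and the number of arrays limits the precision. Alternatives were other scalings, filters, probe choices and array kinds, each mouse left out, trended variances and the replicate block, which for the array kind was added after seeing the data.

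Members were named by rule: up to 4 called members per role group and direction with the largest change, called members against the sign of their group's median, Tufm, members with probes called in opposite directions, and members with a called array kind term. A planned look at protein features was not run. Tables and figures used Python 3.11.15, pandas 2.3.3 and matplotlib 3.10.9.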

Additional observations from a re-analysis of the deposited data

How the results depend on the processing

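The counts of called members depended on how mouse 2 and the pairing of organs were treated. With arrays centred 12 members were higher in kidney and 8 in liver. As deposited these were 2 and 4, and 5 were higher in kidney with mouse 2 aligned on bright probes. Kidney arrays alone gave 5 and 2 of 79, and liver arrays alone 6 and 2 of 80. For these 2 settings the share over all genes was not counted, so their counts cannot be read as few or many. A replicate block for the mouse gave 6 and 2 of 79, beside 11.8% and 5.35% of all genes. Leaving out each mouse in turn gave 5 to 11 higher in kidney and 1 to 12 higher in liver. With arrays scaled to the same spread, only genes with all 6 averages, no dim probes, the probe with fewest missing values, or trended variances, both counts stayed within 1.5 times. The count of members with an array kind difference was 0 in every setting run. Over 18 named members and 230 comparisons, 153 kept direction and side of the threshold, 72 lost the call, 1 gained it (Tufm without mouse 2, -0.42) and 4 reversed: Timm17a with the probe with fewest missing values (-0.059), and Tufm on liver arrays alone (0.15), without mouse 1 (0.15) and without mouse 3 (0.27). Mrps9 could not be tested in 3 settings and Mrps27 without dim probes. The replicate block kept 8 of the 20 calls and added 0. The causes were not tested.

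All calls rest on 3 mice, and 16 of 20 on 1 probe. Genes were named by the platform annotation, and the probes' own sequences were not checked. Signal over background was not measured here.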

Other observations

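Many members share their start region with a gene on the opposite strand. In the RefSeq table (GRCm38.p6), 25 of 74 members (33.8%) had a gene starting within 1000 bases in the head-to-head orientation, beside 18.1% of the genes tested on the arrays and 12.2% of all genes in the table. Both genes were tested in 14 such pairs that hold a member, and both were called in 0 of them, beside 23 of 275 head-to-head pairs of all tested genes (8.36%). The difference between these shares was not tested. Mrps11 (0.88, higher in kidney) faces Mrpl46 (0.02, not called), also a member. Timm10b (0.71) faces Arfip2 (-0.25, not called), and Mrps12 (-0.47, higher in liver) faces the seryl-tRNA synthetase gene Sars2 (0.41, not called). In the other direction Timm9 (0.34, not called) faces 2700049A03Rik (-0.82, higher in liver), and Mrpl2 (0.42, not called) faces Klc4 (1.25, higher in kidney). A call in 1 gene beside none in the other does not show that the difference between them was tested, and it was not.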
